A study of Mus musculus with 4 samples.

Results

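The RNA levels of 10 genes of leukaemia inhibitory factor (LIF) signalling through STAT3 were followed in mouse embryonic stem cells labelled as a Kdm2a knockout and in wild-type cells. The genes were chosen by symbol: the ligand Lif, the receptor chains Lifr and Il6st, the kinases Jak1 and Jak2, the phosphatase gene Ptpn11, the transcription factor gene Stat3, its feedback target Socs3, and the kinase genes Pim1 and Pim3. All 10 were found by Entrez gene number among the 24116 genes of the count table, and all 10 passed the filter on low counts. Each group had 2 RNA-seq libraries. The first group was a line, labelled Kdm2a-/- in the protocol, that was grown from a single clone after a Kdm2a guide RNA was transfected and GFP-positive cells were sorted. Its titles say knockout, whereas its genotype label says that Kdm2a was knocked down. The second group was wild type. Both groups carry the strain label 12910la, and no label gives the wild-type cells a clone of their own. A difference by genotype therefore cannot be told apart from one by clone, transfection or sorting. All cells were grown on gelatin in medium with 15% serum and 10 ng/ml of mouse LIF, so there was no group without LIF.

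LIF is a cytokine of the interleukin-6 family that keeps mouse embryonic stem cells from differentiating. It binds the LIF receptor, encoded by Lifr, which pairs with the shared signalling chain gp130, encoded by Il6st. Kinases of the JAK family bound to the chains then phosphorylate STAT3, which dimerises, enters the nucleus and binds DNA at sites of the form TTCNNNGAA. The phosphatase SHP2, encoded by Ptpn11, links the same receptor to the ERK kinases, and SOCS3 binds gp130 and shuts the signal off. STAT3 acts through phosphorylation, which RNA levels do not measure.

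To show the sequence context of the feedback genes, the letters TTCNNNGAA were searched in RefSeq promoter windows (GRCm38.p6, 250 bases before to 50 after a start). The motif is its own reverse complement, so both strands are covered by a single search. It was present in 8.30% of 32851 windows and in 9.55% of 27025 genes. All 10 genes had windows, and Socs3 was the 1 gene among them with a match, a share of 10% that is near the 9.55% of all genes. A further match pair was found for Cish, a SOCS-family inhibitor of cytokine receptors, which was picked for this after its values were seen. Of the 15 listed JAK-STAT inhibitors, 8 had windows and 1, Cish, had the motif. The stretch before the Socs3 start site (chr11:117969367-117969616, minus strand) and the stretch around the Cish start site (chr9:107296609-107296678, plus strand) are printed with the motif in capitals. The Socs3 start site of this window lies inside the annotated span of the gene, so other starts may exist. A match of letters is not a site that was shown to be bound.
Socs3: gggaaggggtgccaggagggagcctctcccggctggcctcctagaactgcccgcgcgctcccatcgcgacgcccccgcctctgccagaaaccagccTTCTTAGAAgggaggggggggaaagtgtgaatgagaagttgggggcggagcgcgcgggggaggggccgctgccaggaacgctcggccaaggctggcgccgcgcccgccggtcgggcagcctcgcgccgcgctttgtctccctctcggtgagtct
Cish: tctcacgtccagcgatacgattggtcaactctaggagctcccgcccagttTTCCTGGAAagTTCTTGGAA

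The libraries did not group by label. Total counts were 19056529 and 18872382 in the knockout libraries and 19005131 and 18844246 in the wild-type libraries. Kdm2a itself had 3710 and 4753 counts in the knockout libraries, against 2899 and 3554 in wild type, so its RNA was not lower. Counts of a gene do not show whether its sequence was edited, so they cannot check the label. All directions therefore rest on the labels. Across the 14194 genes tested, r between knockout 1 and wild type 1 was 0.984 and between knockout 1 and wild type 2 was 0.978, whereas r between the knockout libraries was 0.952, a description across genes that are not replicates. The labels do not say whether the libraries of a label stem from different cultures, and the spread behind each p-value may therefore be technical. Markers of embryonic stem cells summed to 6133 and 4978 CPM (counts scaled to a common library size) in the knockout libraries and 5919 and 5617 CPM in wild type. The summed markers of the other cell types were between 3.45 CPM (blood cells) and 109 CPM (trophoblast, of which the genes defining it, Cdx2 and Elf5, had at most 2 counts in any library). Knockout 2 stood apart in the sum of the 2-cell-like markers and in single genes of other lists. Its 2-cell-like markers summed to 5.06 CPM, against 22.4 CPM in knockout 1 and 11.9 and 21.5 CPM in wild type. The endoderm gene Foxa2 had 59 counts in knockout 2 and 0 or 1 in the other libraries. Sox7, another, had 11 and 60 counts in the knockout libraries and 5 and 12 in wild type. Not all endoderm markers followed, and Hnf4a, Pdgfra and Sox17 were lowest in knockout 2. Hnf4a had 11.5 and 8.74 CPM in knockout and 11.1 and 9.90 CPM in wild type. The endoderm markers summed to 22.2 and 26.7 CPM in knockout and 24.9 and 16.5 CPM in wild type. Eomes, a mesoderm and trophoblast gene, had 198 and 471 counts in knockout and 244 and 321 in wild type. The part of these cell types in the levels of knockout 2 given below was not tested. In bulk RNA, fewer cells of a type and less RNA per cell cannot be told apart.

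None of the 10 genes passed the adjusted threshold between knockout and wild-type cells in the test used, which does not show that their levels were equal. By the edgeR quasi-likelihood test, with Benjamini-Hochberg adjustment across the whole table of tested genes, 0 of 10 passed a threshold of 0.05, and 0 of 14194 genes did (0%). No member had an unadjusted p under 0.05 either, against 242 genes (1.70%) of the table, and DESeq2 called none of them while calling 2 genes in all (0.0141%). Log2 fold changes, given as knockout minus wild type, were between -0.27 (Socs3) and 0.32 (Il6st), 5 positive and 5 negative, with a median of 0.020 beside 0.0029 over all genes tested. The groups did not overlap for 2 members, Il6st and Pim3, both higher in knockout, which is near the background of 24.4% for either direction and 11.7% for higher. With 2 libraries a group, an exact permutation test of a single gene cannot give a p below 0.333, so it was not used for calls. All levels below are in CPM after TMM scaling, and the adjusted p of every member was 1.00 by the quasi-likelihood test.

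**Figure D1:**
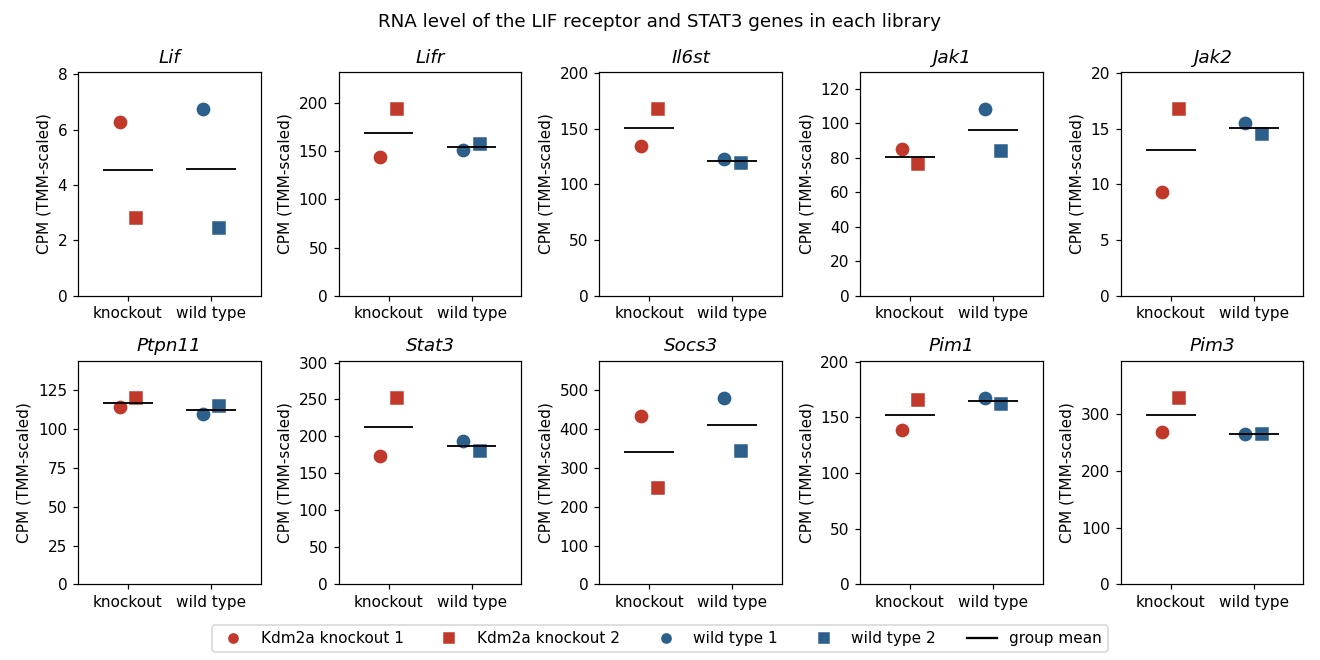
RNA level of each of the 10 genes, in CPM after TMM scaling on a linear axis that starts at 0, in the 2 knockout libraries (left, red) and the 2 wild-type libraries (right, blue), with circles for libraries numbered 1, squares for those numbered 2 and a line at the group mean. For Il6st and Pim3 both red points lie above both blue points, and for the other 8 genes the groups overlap.

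The ligand gene was barely expressed, and it differed more within each group than between the group means. Lif (Entrez gene 16878, GRCm38.p6 chr11:4257568-4272514, plus strand) had 120 and 51 counts in the knockout libraries, against 129 and 47 in wild type. These are 6.27 and 2.80 CPM in knockout cells and 6.74 and 2.44 CPM in wild-type cells. In each group the library numbered 1 was the high one and the library numbered 2 the low one, and the groups overlapped fully. The exact 95% Poisson intervals of the counts, which cover counting error only, were 99.5 to 143.5 and 38.0 to 67.1 in knockout and 108 to 153 and 34.5 to 62.5 in wild type, so the difference within each group exceeded counting error. The log2 fold change was -0.015 (SE 0.65), with a 95% interval of -1.56 to 1.53. That interval is wide enough to hold a change of more than 2-fold either way.

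Some markers of several cell types, fibroblasts among them, were also high in the libraries numbered 1 and low in those numbered 2. Fibroblasts are used as feeder cells that supply LIF. The 8 fibroblast markers summed to 36.6 and 20.01 CPM in the knockout libraries and 45.5 and 20.7 CPM in wild type. Most of this was Thy1, a surface glycoprotein that is not limited to fibroblasts, at 31.0 and 17.8 CPM in knockout and 36.5 and 16.4 CPM in wild type. The collagen gene Col1a1 gave 5.22 and 2.09 CPM in knockout and 8.83 and 4.25 CPM in wild type. The other 6 fibroblast markers were under 1 CPM in every library, and Fap and Lum had no count in any of them. The same pattern was seen in some genes of embryonic stem cells and trophoblast, but not in others. Tdgf1, a stem cell gene, had 1244 and 831 CPM in knockout and 1387 and 940 CPM in wild type, and Dppa5a, another, had 413 and 273 CPM in knockout and 512 and 303 CPM in wild type. Ascl2, a trophoblast gene, had 13.4 and 6.27 CPM in knockout and 15.8 and 3.58 CPM in wild type. The stem cell gene Esrrb ran the other way, at 1108 and 1139 CPM in knockout and 958 and 1025 CPM in wild type. So did Eomes, at 10.3 and 25.9 CPM in knockout and 12.7 and 16.6 CPM in wild type. Nanog and Zfp42 ran the other way in wild type only, and Tfap2c, a trophoblast gene, in knockout only. The part of any cell type in the Lif level was not tested.

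Both receptor chains were expressed at similar levels, and both were highest in knockout 2. Lifr (Entrez gene 16880, chr15:7090610-7197489, plus strand) encodes the chain that binds LIF. It had 144 and 194 CPM in the knockout libraries, against 152 and 157 CPM in wild type. Knockout 1 lay below and knockout 2 above both wild-type libraries. Its log2 fold change was 0.13 (SE 0.23; 95% interval -0.43 to 0.68), and without knockout 2 it was -0.10. Il6st (Entrez gene 16195, chr13:112464070-112506860, plus strand) encodes gp130, which all receptors of this cytokine family share. Il6st had 134 and 168 CPM in the knockout libraries, against 123 and 119 CPM in wild type. It had the largest positive fold change of the 10 genes, on the log2 scale a value of 0.32 (SE 0.22; 95% interval -0.21 to 0.84; unadjusted p = 0.201 and adjusted p = 1.00 by the edgeR quasi-likelihood test). Both knockout libraries were above both wild-type libraries, and the fold change was 0.15 without knockout 2 and 0.46 without knockout 1. Per kilobase of exon, Lifr stood at 1.10 and 1.19 times Il6st in the knockout libraries and at 1.27 and 1.36 times in wild type.

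Among the kinases, Jak1 was the more abundant and Jak2 the more variable. Jak1 (Entrez gene 16451, chr4:101151974-101265282, minus strand), the main kinase of gp130 receptors, had 85.1 and 76.1 CPM in the knockout libraries, against 108 and 84.0 CPM in wild type. Knockout 2 was the lowest library and wild type 1 the highest, while knockout 1 and wild type 2 lay close together. Its log2 fold change was -0.25 (SE 0.24; 95% interval -0.82 to 0.31), and without wild type 1 it was -0.059. The span of Jak1 also holds a processed pseudogene, Gm12785, of 172 bases on the same strand, a small nuclear RNA gene and an overlap of 4 bases with Raver2. Jak2 (Entrez gene 16452, chr19:29251803-29313095, plus strand), a second kinase that can bind gp130, had 179 and 305 counts in the knockout libraries, against 297 and 281 in wild type. In CPM these were 9.35 and 16.8 in knockout and 15.5 and 14.6 in wild type. Knockout 1 stood alone as the low library, at 62.2% of the wild-type mean, and its Poisson interval of 154 to 207 counts did not reach those of the other libraries, whose lowest bound was 249.1. The log2 fold change was -0.20 (SE 0.39; 95% interval -1.14 to 0.73), and it was 0.15 without knockout 1 and -0.68 without knockout 2. Knockout 1 was thus the library that set the sign for Jak2.

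Ptpn11 varied least. This gene (Entrez gene 19247, chr5:121130533-121191397, minus strand) had 114 and 120 CPM in the knockout libraries, against 110 and 115 CPM in wild type. Its highest library was 1.09 times its lowest, the smallest such ratio of the 10 genes. The groups overlapped, and the log2 fold change was 0.056 (SE 0.21) with a 95% interval of -0.44 to 0.56, which lies within a 1.5-fold difference either way. An unconfirmed gene model, Gm42930, overlaps the span of Ptpn11 by 3260 bases on the same strand, where strand cannot separate reads.

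Stat3 RNA was high in knockout 2 alone. Stat3 (Entrez gene 20848, chr11:100886806-100939594, minus strand) had 173 and 252 CPM in the knockout libraries, against 194 and 180 CPM in wild type. Knockout 1 was the lowest library, at 92.4% of the wild-type mean, and knockout 2 the highest, at 135% of it. The log2 fold change was 0.18 (SE 0.25; 95% interval -0.41 to 0.77), and it was -0.11 without knockout 2. In the GENCODE annotation the end of Stat3 overlaps that of Stat5a on the other strand by 72 bases, and the strand setting of the counting is not given in the sources used here.

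Socs3, the feedback inhibitor, was low in knockout 2, where Stat3 was high. Socs3 (Entrez gene 12702, chr11:117966079-117970336, minus strand) had 8299 and 4508 counts in the knockout libraries, against 9186 and 6617 in wild type. In CPM it was 434 and 248 in knockout cells and 480 and 343 in wild-type cells. In both groups the library numbered 1 was the higher, knockout 1 lay between the wild-type libraries, and knockout 2 lay below all others at 60.2% of the wild-type mean. The means were 341 ± 131 CPM in knockout and 412 ± 96.8 CPM in wild type (SD, n = 2 each), and the log2 fold change was -0.27 (SE 0.32; 95% interval -1.02 to 0.48). It was -0.73 without knockout 1, 0.080 without knockout 2 and -0.0088 without wild type 1, so the direction rested on single libraries. A fit without knockout 1 or knockout 2 holds 1 knockout library, so it does not measure the spread of that group. Per kilobase of exon, Socs3 was 8.25 and 3.24 times Stat3 in the knockout libraries and 8.14 and 6.27 times Stat3 in wild type. Knockout 2 was the library with the lowest ratio.

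The genes whose levels ran most like Socs3 over the 4 libraries were Itpripl1, Prrt2 and Gcnt1, with distances of 0.031 to 0.051 in centred log2 CPM among 10769 genes outside the set that averaged 5 CPM or more. Itpripl1 had 18.7 and 10.7 CPM in the knockout libraries, against 20.5 and 15.1 CPM in wild type. With so many candidates and so few libraries, close matches are a description only. Cish, whose promoter stretch is printed above, had 12.4 and 6.93 CPM in knockout and 12.0 and 7.0 CPM in wild type. Its libraries numbered 1 were the high ones in both groups, as for Socs3 and Lif, and its log2 fold change was 0.026 (SE 0.47).

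The PIM kinase genes had fold changes of opposite sign, neither past the threshold, and both genes were lower in knockout 1 than in knockout 2. Pim1 (Entrez gene 18712, chr17:29490785-29496111, plus strand), a serine/threonine kinase induced by STAT3, had 139 and 165 CPM in the knockout libraries, against 167 and 162 CPM in wild type. Knockout 1 was the low library and the other 3 lay close together. Its log2 fold change was -0.12 (SE 0.22; 95% interval -0.63 to 0.39). An antisense gene, Gm26885, overlaps Pim1 by 1173 bases, so reads of the pair may be merged. Pim3 (Entrez gene 223775, chr15:88862194-88865726, plus strand), a related kinase that helps embryonic stem cells renew themselves, had 268 and 328 CPM in the knockout libraries, against 265 and 264 CPM in wild type. The wild-type libraries were all but equal, knockout 1 lay just above them and knockout 2 stood clearly apart. The log2 fold change was 0.17 (SE 0.21; 95% interval -0.32 to 0.67), and 0.025 without knockout 2.

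**Figure D2:**
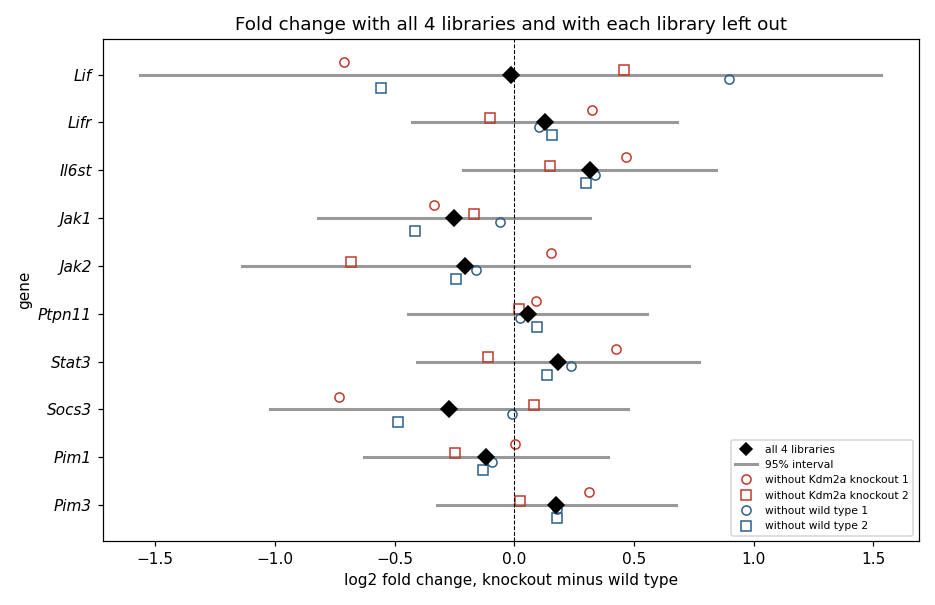
Log2 fold change, knockout minus wild type, of the 10 genes with all 4 libraries (black diamonds) with 95% intervals from the edgeR quasi-likelihood fit (grey lines), and with each library left out (open symbols). Every interval crosses 0, and for Socs3 the open symbols run from -0.73 without knockout 1 to 0.080 without knockout 2.

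Across the set, differences between the knockout libraries were wider than those between the wild-type libraries. The knockout pair was farther apart than the wild-type pair on a log scale for 8 of 10 genes, the exceptions being Lif and Jak1, against 55.0% of all genes tested. Knockout 2 was the highest library for 6 of the 10 genes (Lifr, Il6st, Jak2, Ptpn11, Stat3 and Pim3), against 33.6% of all genes, and wild type 1 was the highest for the other 4, against 29.6%. Knockout 1 was the lowest library for 4 genes (Lifr, Jak2, Stat3 and Pim1), against 16.9% of all genes. Knockout 2 was the lowest for 2 genes, against 33.4%, wild type 2 for 3, against 22.5%, and wild type 1 for 1, against 27.3%. For Socs3 the absolute log2 difference was 0.81 between the knockout libraries and 0.48 between the wild-type libraries, whereas the medians over the 7707 genes that averaged 20 CPM or more were 0.29 and 0.27. These are counts over the libraries and carry no test.

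Levels per length put Socs3, Pim3 and Pim1 on top of the 10 genes and the ligand gene Lif at the bottom. In CPM per kilobase of exon, averaged over the 4 libraries, Socs3 led at 130.1 and Pim3 followed at 116, with ranges that overlap. Pim1 came next at 47.1 and Stat3 at 20.999, both apart from their neighbours in every library. Ptpn11 (15.3), Lifr (15.0), Il6st (12.3) and Jak1 (12.2) formed a group in which each overlapped the next. Jak2 at 2.79 and Lif at 1.05 were apart from those above them. Socs3 was 124 times Lif and Jak1 was 4.37 times Jak2. Dividing by the longest transcript in place of all exons kept the first 4 and the last 2 places and moved Jak1 from place 8 to place 5 of 10.

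**Figure D3:**
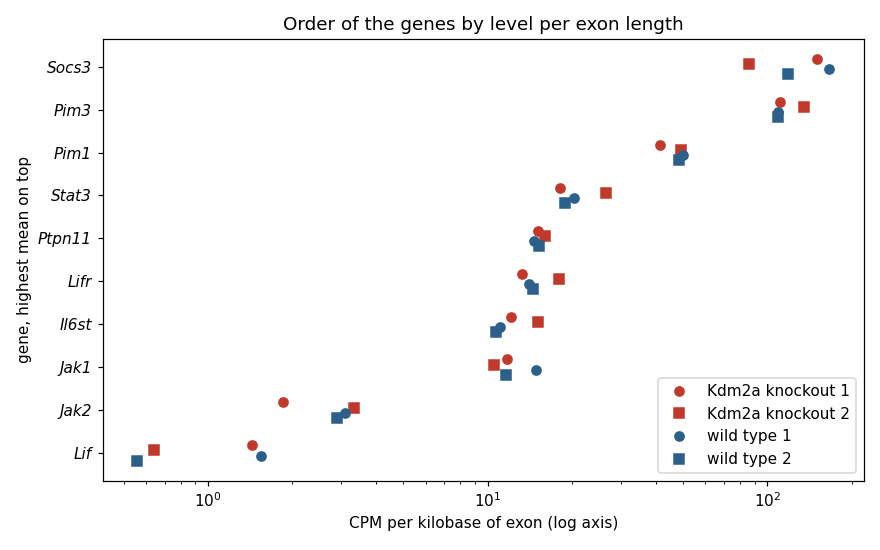
Level of the 10 genes per exon length, in CPM per kilobase on a log axis, ordered by their mean with the highest on top. Red points are the 2 knockout libraries and blue points the 2 wild-type libraries. Socs3 and Pim3 lie near 100, the receptor chains, Ptpn11 and Jak1 between 10.5 and 17.97, and Lif between 0.560 and 1.55.

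In the wider pathway, 7 further lists held 78 genes, of which 72 were tested, and 0 passed the threshold or had an unadjusted p under 0.05 (lowest 0.0728). Of these, 38 had a positive and 34 a negative fold change, with a median of 0.022. The groups did not overlap for 13 of them, 6 higher and 7 lower in knockout, a share of 18.1% that is below the 24.4% of all genes. Genes named for groups that do not overlap were picked after their values were seen.

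Most other ligands of gp130 were at a low level. Of 7 genes, Il6 and Il27 had no count in any library, which allows up to 0.165 CPM (3 counts in knockout 2, where the limit is highest), and 3 were tested. Ctf1, which encodes cardiotrophin and was the most abundant, had 4.02 and 3.63 CPM in the knockout libraries, against 3.71 and 3.58 CPM in wild type. The median fold change of the 3 tested ligands was -0.30, and it was 0.15 without knockout 2 and 0.053 without wild type 2. Among 6 co-receptors, 5 were tested. Cntfr, the receptor for ciliary neurotrophic factor and the most abundant of them, had 17.1 and 19.1 CPM in knockout and 13.3 and 7.93 CPM in wild type, a log2 fold change of 0.77 (SE 0.38) with unadjusted p = 0.0825 and adjusted p = 1.00 by the edgeR quasi-likelihood test. Its knockout libraries were both above its wild-type libraries.

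Of the other JAK and STAT genes, all 8 were tested, with 2 positive and 6 negative fold changes and a median of -0.27. Jak3, the most abundant and a kinase of common gamma chain receptors, had 75.0 and 116 CPM in the knockout libraries, against 76.3 and 60.7 CPM in wild type. Stat5a had 6.01 and 6.87 CPM in knockout and 14.8 and 8.97 CPM in wild type (log2 fold change -0.88, SE 0.42). Stat5b, its close paralog, had 14.9 and 13.6 CPM in knockout and 25.7 and 18.9 CPM in wild type (-0.64, SE 0.32). Both knockout libraries lay below both wild-type libraries for these 2 STAT genes and for Tyk2, a further JAK kinase. Reads that match both paralogs could have been dropped or split, since the treatment of such reads is not given in the sources used here. The list median was -0.53 without knockout 1 and -0.029 without knockout 2.

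Fold changes of the JAK-STAT inhibitors were mixed in sign, with 9 positive and 6 negative among 15 tested and a median of 0.022. Pias2, an E3 SUMO ligase that was their most abundant member, had 212 and 227 CPM in the knockout libraries, against 173 and 259 CPM in wild type. Socs2 had the largest fold change of the list, 0.58 on the log2 scale (SE 0.38). It had 58.2 and 124 CPM in knockout and 70.5 and 51.2 CPM in wild type, so knockout 2 alone was high. The groups did not overlap for 0 of the 15 inhibitors, against 24.4% of all genes tested.

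Known or proposed STAT3 targets in embryonic stem cells had 10 positive and 5 negative fold changes among 15 tested of 16, with a median of 0.30. That median was 0.024 without knockout 2 and 0.026 without wild type 1. Tfcp2l1, a naive pluripotency factor downstream of LIF and the most abundant of the list, had 777 and 744 CPM in the knockout libraries, against 743 and 586 CPM in wild type. Its knockout libraries were above both wild-type libraries, by a small margin over wild type 1. Bcl3, a nuclear cofactor of NF-kappaB, had 88.3 and 84.7 CPM in knockout and 59.5 and 66.1 CPM in wild type, a log2 fold change of 0.46 (SE 0.22; unadjusted p = 0.0765 and adjusted p = 1.00 by the edgeR quasi-likelihood test). Klf4, a naive pluripotency factor, was low in knockout 2 as Socs3 was, at 533 and 251 CPM in knockout and 421 and 508 CPM in wild type, but its libraries numbered 1 were not both high. Myc and Gbx2 were lowest in wild type 1. Myc had 65.9 and 59.9 CPM in knockout and 16.2 and 72.3 CPM in wild type.

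The branches from SHP2 to ERK and from PI3K to AKT had medians of -0.057 over 15 genes and 0.14 over 11 genes. Gab1, a docking protein and the most abundant gene of the first, had 631 and 556 CPM in the knockout libraries, against 605 and 651 CPM in wild type. Braf (64.2 and 57.0 CPM in knockout, 75.7 and 77.6 CPM in wild type) was lower, and Nras and Shc1 were higher, in both knockout libraries than in both wild-type libraries. Gsk3a, a kinase that AKT inhibits and the most abundant of the second branch, had 198 and 159 CPM in the knockout libraries, against 226 and 183 CPM in wild type. In that branch Akt2, an AKT kinase, had 53.7 and 60.1 CPM in knockout and 53.1 and 46.9 CPM in wild type, with both knockout libraries above both wild-type libraries. The median of the second branch was -0.036 without knockout 2.

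**Figure D4:**
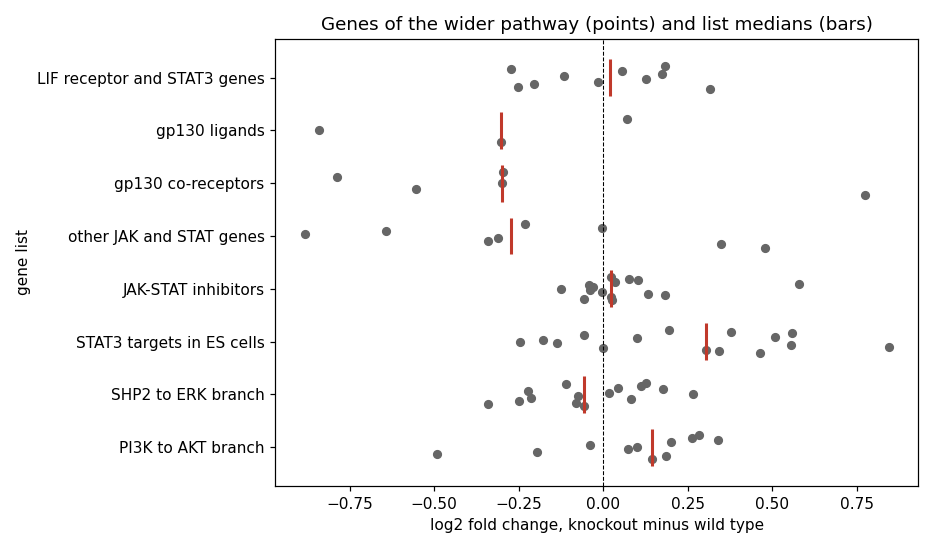
Log2 fold change, knockout minus wild type, of each tested gene (grey points) in the 10 LIF receptor and STAT3 genes and 7 further lists, with the list median as a red bar. Medians lie between -0.30 (gp130 ligands, 3 genes) and 0.30 (STAT3 targets, 15 genes), and no point passed the threshold. The median of the gp130 ligands turned to 0.15 without knockout 2.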

How the data were processed

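The authors deposited raw counts of reads for every gene in 4 libraries, without scaling. The submitters' processing notes name HISAT2, featureCounts and mm10. Not given in the sources used here are versions, annotation, strand setting and the handling of multi-mapping reads. Reads were 50 bases long per the labels' protocols. Of 24116 Entrez genes, 24061 matched a RefSeq symbol (GRCm38.p6, the assembly behind mm10), and the 55 others held 0.0334% to 0.0439% of a library's counts.

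The counts went through edgeR 4.0.16, run in R 4.3.3 (filterByExpr, TMM, quasi-likelihood test of genotype alone), which left 14194 genes. Log2 fold changes are knockout over wild type, SE is their size divided by the square root of F, and intervals are 95%. The prior count of log2 CPM was 2. A count of 0 allows 3 counts. Exon lengths came from GENCODE M21. Alternatives were 3 scalings, 2 filters, DESeq2 1.42.0, limma-voom (3.58.1), the likelihood ratio test, a replicate block, a threshold of 0.01, each library left out and another gene length. The test was tried on simulated counts with the same spread set for every gene, which does not show what changes it can find in the members.

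Members and lists were chosen with earlier results of these data known. The text names every member, Kdm2a, cell type markers, the most abundant gene of each list and the 3 genes most like Socs3. Listed genes with an unadjusted p under 0.05 were to be named, and there were none. Outside this rule, and with their values seen, the text also names Cish, Socs2, Klf4, Myc, Gbx2, Il6 and Il27. The same holds for some listed genes whose groups do not overlap. Some listed genes are counted but not reported here by name.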

Additional observations from a re-analysis of the deposited data

How the results depend on the processing

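The count of 0 members past the threshold held under every refit with all 4 libraries and with a threshold of 0.01. The count over all genes was 0 except with DESeq2 (2), with the likelihood ratio test (4) and with a library left out (0 to 91, 91 without knockout 1 and 8 without knockout 2). Under 13 refits of the counts, 4 of 10 members kept their sign (Il6st, Jak1, Ptpn11 and Pim3) and 6 turned at least once. Lif turned to 0.057 with limma-voom and 0.041 with the replicate block, and ran from -0.71 to 0.90 with a library left out. With a library left out, log2 fold changes ran from -0.10 to 0.32 for Lifr, -0.68 to 0.15 for Jak2, -0.11 to 0.43 for Stat3, -0.73 to 0.080 for Socs3 and -0.25 to 0.0028 for Pim1, each turning without 1 knockout library. The cause was not tested. Same-numbered libraries deviated together from their group means (r = 0.378 over 10778 genes), but the labels do not say what a number marks. With the replicate block 0 genes passed and 735 had an unadjusted p under 0.05, against 242 without it, and 0 members passed. List medians with a library left out were chosen after the data were seen. Lif and Jak2, at 47 to 129 and 179 to 305 counts, are limited by depth most.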
